A study of Mus musculus with 18 samples.

Results

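Egr1, Egr2, Egr3, Nr4a1, Nr4a2, Ptgs2, Ier2, Ier3 and Phlda1 are genes that many cells switch on in response to calcium and growth-factor signals. They were chosen by name, with earlier results of these data known, as 9 of the 18193 genes on the array. Every probe set that the platform's annotation gives to these symbols alone was taken, 17 in all. The arrays measured RNA of mouse embryonic stem cells, labelled as the CGR8 line and grown with serum and LIF. In 12 arrays the cells carried plasmids introduced by lipofection, with 3 biological replicates each of Foxd3 together with CA-NFATc3, CA-NFATc3 alone, Foxd3 alone and the empty vector; CA-NFATc3 is read here as constitutively active NFATc3, a meaning the labels leave unstated, and every one of these groups, the vector included, had been transfected. In the other 6 arrays the cells carried conditional alleles of Foxd3 and an inducible Cre (Foxd3fl/fl:Cre-ERT), with 3 replicates after 2 days of tamoxifen and 3 at 0 days with DMSO, so that the DMSO cells carry the same floxed alleles and the same Cre. The share of cells that took up a plasmid, the promoters that drive the plasmids and the Cre, and the number of knockout clones were not stated in the labels. Foxd3 is a forkhead repressor of pluripotent cells.

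NFAT proteins wait in the cytoplasm until a rise in calcium activates the phosphatase calcineurin, which strips their phosphates and sends them to the nucleus. The genes described here are immediate early genes in many cell types: their transcription starts within minutes of a calcium or growth-factor signal, without new protein synthesis. Egr1, Egr2 and Egr3 are zinc-finger transcription factors, Nr4a1 and Nr4a2 are orphan nuclear receptors, Ptgs2 (COX-2) is the inducible enzyme that opens prostaglandin synthesis, Ier2 is a nuclear protein, Ier3 acts in survival and stress signalling, and Phlda1 is a pleckstrin-homology-domain protein. In T cells, Egr2, Egr3 and the Nr4a genes are well-known targets of calcineurin and NFAT.

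Of the 9 members, 5 had a promoter window, and the sequences of all of these but Nr4a2 are shown. Each is the RefSeq window of GRCm38.p6 that runs from 250 bases before to 50 bases after a gene's start, on the plus strand, 5′ to 3′, and capitals mark the NFAT core GGAAA, the CRE half-site TGACG and the CArG box (the site of serum response factor), each on either strand.
Ptgs2, chr1:150099781-150100080: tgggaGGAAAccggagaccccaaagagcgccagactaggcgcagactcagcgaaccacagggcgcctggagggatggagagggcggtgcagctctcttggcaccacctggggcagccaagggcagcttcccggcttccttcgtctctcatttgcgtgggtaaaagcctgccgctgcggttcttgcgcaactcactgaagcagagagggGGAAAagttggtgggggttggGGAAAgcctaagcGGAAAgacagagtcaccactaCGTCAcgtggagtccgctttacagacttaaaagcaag
Egr2, chr10:67537619-67537918: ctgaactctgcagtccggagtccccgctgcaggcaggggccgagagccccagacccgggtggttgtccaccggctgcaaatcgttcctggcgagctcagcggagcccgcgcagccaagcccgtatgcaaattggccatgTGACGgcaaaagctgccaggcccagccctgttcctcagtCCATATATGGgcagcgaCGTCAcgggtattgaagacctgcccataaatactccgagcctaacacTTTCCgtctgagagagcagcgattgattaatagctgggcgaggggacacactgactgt
Nr4a1, chr15:101266596-101266895: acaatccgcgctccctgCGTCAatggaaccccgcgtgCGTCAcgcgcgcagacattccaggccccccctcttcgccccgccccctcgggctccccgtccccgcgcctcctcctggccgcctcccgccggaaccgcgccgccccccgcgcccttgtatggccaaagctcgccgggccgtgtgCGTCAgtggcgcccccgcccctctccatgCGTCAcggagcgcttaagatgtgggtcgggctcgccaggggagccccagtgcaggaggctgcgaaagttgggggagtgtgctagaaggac
Ier3, chr17:35821463-35821762: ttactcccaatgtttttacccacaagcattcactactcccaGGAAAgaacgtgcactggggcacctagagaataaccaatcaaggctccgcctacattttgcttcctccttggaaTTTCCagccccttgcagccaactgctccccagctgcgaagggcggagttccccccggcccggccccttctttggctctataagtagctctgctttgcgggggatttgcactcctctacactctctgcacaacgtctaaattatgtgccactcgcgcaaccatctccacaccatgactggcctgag
The Ptgs2 window holds 4 NFAT cores and 1 CRE half-site. Egr2 has 5 windows from different starts; the one shown and 2 that overlap it each hold 1 NFAT core, 2 CRE half-sites and 1 CArG box, another holds 3 NFAT cores, 1 CArG box and no CRE half-site, and the fifth holds none of the marked motifs. The Nr4a1 window holds no NFAT core and 4 CRE half-sites, while the Ier3 window holds 2 NFAT cores and no CRE half-site. None of the sites marked in the sequences shown overlap, while in the Egr2 window with 3 NFAT cores a core overlaps the CArG box. Among all 32851 such windows, 61.3% hold an NFAT core, 20.8% a CRE half-site and 1.63% a CArG box, so an NFAT core is the usual state of a window of 300 bases. Of the other motifs searched, the EGR site GCGNGGGCG is in 5.55% of all windows, the full CRE TGACGTCA in 1.79% and the AP-1 site TGANTCA in 7.81%; the Nr4a1 window has 1 EGR site, and the other windows shown have none of the 3. Nr4a2 also had a window, with 1 NFAT core and 4 CRE half-sites, so 5 of the 9 members were matched. A match or its absence describes these letters in this window and says nothing of whether a factor binds. The shares are of windows with any match and do not give how usual several matches are. No link between the matches and the responses below was tested.

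Signals are MAS5 intensities on a linear scale, differences are given on the log2(signal + 32) scale with their standard errors, and a gene was called at a limma adjusted p under 0.05. A signal of 65.8, the median of all deposited values, had to be reached in at least 3 arrays of a fit for a gene to be tested. Median signals were 55.2 to 67.1 in the transfected arrays and 73.0 to 80.7 in the knockout arrays, and replicates correlated at 0.981 to 0.988 across probe sets. The 8 embryonic stem cell markers (among them Pou5f1, Nanog and Sox2) were at or above 65.8 in at least 1 array of every group. The Foxd3 probe set went against the Foxd3 label. It read 210 to 277 in arrays labelled with both plasmids and 232 to 244 in arrays labelled Foxd3, against 404 to 507 in vector arrays, so that Foxd3 arrays lay -0.81 ± 0.13 from vector arrays (limma adjusted p = 0.00169). In the knockout arrays it read 9.55 to 65.1 with tamoxifen and 203.6 to 248.9 with DMSO. The 2 Nfatc3 probe sets of this check were not called in CA-NFATc3 arrays against vector. The position of these probe sets relative to the plasmid inserts and the deleted part was not known here, so groups are called by their labels, and any direction drawn from the Foxd3 label rests on that label alone. Fewer cells that express a gene and less RNA per cell cannot be told apart in such bulk samples.

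Ptgs2, Phlda1 and Egr2 were higher in cells labelled CA-NFATc3 than in vector cells. In the main fit, which did not pair arrays by replicate number, Egr1, Ier3 and Nr4a1 were higher with less margin. With the replicate number as a block, Egr1, Ier3 and Nr4a1 were called as well. Ier2 and Nr4a2 were not called. In all, 6 of the 8 members tested were called higher and 0 lower, where 4.62% of the 11609 genes tested were called higher and 1.24% lower. Since the members were chosen with earlier results of these data known, this count is a description. Of the 6, Egr2 entered the test through the CA-NFATc3 arrays alone and Ptgs2 through these and 1 other array. The count was 2 without CA-NFATc3 replicate 3 and 3 without CA-NFATc3 replicate 2 or vector replicate 1, and leaving out any other single array gave 4 to 6. Egr2 fell under the filter, and so was not tested, when any 1 CA-NFATc3 array was left out. Fibroblast markers, which could mark feeder or other mesenchymal cells, summed to 8767 to 9850 in CA-NFATc3 arrays and 9007 to 10527 in vector arrays, and 1 of the 6 tested (Col3a1) was called higher. Most of each sum was Vim, with means of 8118 in CA-NFATc3 arrays and 8804 in vector arrays. Of 13 such markers, 7 were under the filter level in every CA-NFATc3 array and 9 in every vector array, Col1a1, Dcn, Lum and Postn among them in both groups.

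Ptgs2 (probe set 1417262_at) had signals of 473.6, 456.1 and 1215 in CA-NFATc3 arrays, against 31.7, 31.9 and 41.8 in vector arrays. Every CA-NFATc3 array was well above the filter level and every vector array was below it, so the ratio of the mean CA-NFATc3 signal to that level, at least 10.9-fold, is a lower bound. Of the other transfected arrays, 1 with both plasmids reached the filter level. The difference was 3.33 ± 0.30 (limma adjusted p = 3.93e-06), the largest among the members, and it was called under each of the 23 alternatives run. The second Ptgs2 probe set was dimmer, at 59.5, 61.1 and 115 in CA-NFATc3 arrays and 16.9, 31.9 and 22.1 in vector arrays, and was not tested in the transfected cells.

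Among the Egr factors, Egr1 (1417065_at) was the brightest. It read 1807, 1258 and 3932 in CA-NFATc3 arrays, against 731.4, 368.8 and 908 in vector arrays. The groups did not overlap, but each was wide, and the difference of 1.68 ± 0.45 (limma adjusted p = 0.0356) was not called without vector replicate 1 (adjusted p = 0.0690), vector replicate 2 (0.163), CA-NFATc3 replicate 1 (0.0594) or CA-NFATc3 replicate 3 (0.227), nor without a filter (0.0523) or by the mean of a gene's probe sets (0.0564). Over all 23 alternatives the limma adjusted p of Egr1 ran from 1.88e-06 to 0.227. Egr2 was dim: its brighter probe set (1427683_at) read 117, 108.9 and 161.5 in CA-NFATc3 arrays, against 28.8, 3.19 and 10.8 in vector arrays. All 3 CA-NFATc3 arrays were over the filter level, as no other transfected array was, so this gene entered the test only through the group in which it was high. Its difference was 1.82 ± 0.30 (limma adjusted p = 0.00123), with a mean signal at least 1.96-fold over that level, and the second Egr2 probe set (1427682_a_at) gave 1.95 ± 0.28 when each probe set was tested on its own (limma adjusted p = 0.000429).

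The 2 Egr3 probe sets behaved differently. The one with the higher mean read 45.9, 52.8 and 37.7 in CA-NFATc3 arrays and 39.8, 57.4 and 40.8 in vector arrays, reached the filter level in 1 transfected array and was not tested. The other (1436329_at) read 130.2, 118.6 and 142.9 in CA-NFATc3 arrays, against 7.85, 1.40 and 11.6 in vector arrays. Its difference in the test of each probe set was 2.07 ± 0.24 (limma adjusted p = 5.85e-05), at least 1.99-fold over the filter level, but the choice of the brighter probe set left Egr3 out of the count above. Like both Egr2 probe sets, it reached the filter level in the 3 CA-NFATc3 arrays and no other transfected array, so it too entered the test only through the group in which it was high, and its values are a description.

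Of the nuclear receptors, Nr4a1 (1416505_at) moved by the least of the called members. It read 1134, 1254 and 1486 in CA-NFATc3 arrays, against 827.4, 1001 and 962.1 in vector arrays. The arrays did not overlap, and the difference of 0.46 ± 0.11 (limma adjusted p = 0.0221) was not called without vector replicate 1 (adjusted p = 0.107), vector replicate 3 (0.0559), CA-NFATc3 replicate 2 (0.0514) or CA-NFATc3 replicate 3 (0.161). The 6 Nr4a2 probe sets disagreed and lay mostly near or under the filter level. The brightest (1450749_a_at) gave 0.14 (limma adjusted p = 0.929), one (1455034_at) read 64.8, 87.8 and 133 in CA-NFATc3 arrays against 26.5, 22.9 and 20.2 in vector arrays without being tested, and another (1433422_at) ran the opposite way, at 51.5, 22.7 and 30.9 in CA-NFATc3 arrays against 75.3, 46.0 and 103 in vector arrays (-0.66, limma adjusted p = 0.225).

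The response genes outside the transcription factor families split in the same contrast. Phlda1 (1418835_at) read 586.7, 646.5 and 869.7 in CA-NFATc3 arrays, against 267.9, 283.6 and 249.4 in vector arrays, a difference of 1.28 ± 0.14 (limma adjusted p = 2.90e-05) called under all 23 alternatives. Ier3 read 715, 1430 and 1196 in CA-NFATc3 arrays, against 227.1, 674.3 and 350.1 in vector arrays. Its difference of 1.42 ± 0.40 (limma adjusted p = 0.0474) lay just past the threshold and was not called without vector replicate 1 (0.197), vector replicate 3 (0.148), Foxd3 replicate 3 (0.0634), CA-NFATc3 replicate 2 (0.177), CA-NFATc3 replicate 3 (0.185) or replicate 3 of the arrays with both plasmids (0.0634), nor in 4 other settings (0.0546 to 0.0723). Over all 23 alternatives the limma adjusted p of Ier3 ran from 1.22e-05 to 0.197. Ier2, the brightest member in the transfected cells, read 3232, 3236 and 3613 in CA-NFATc3 arrays, against 3744, 3620 and 3851 in vector arrays. Its difference was -0.15, with a 95% interval of -0.32 to 0.01 (limma adjusted p = 0.373).

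**Figure D1:**
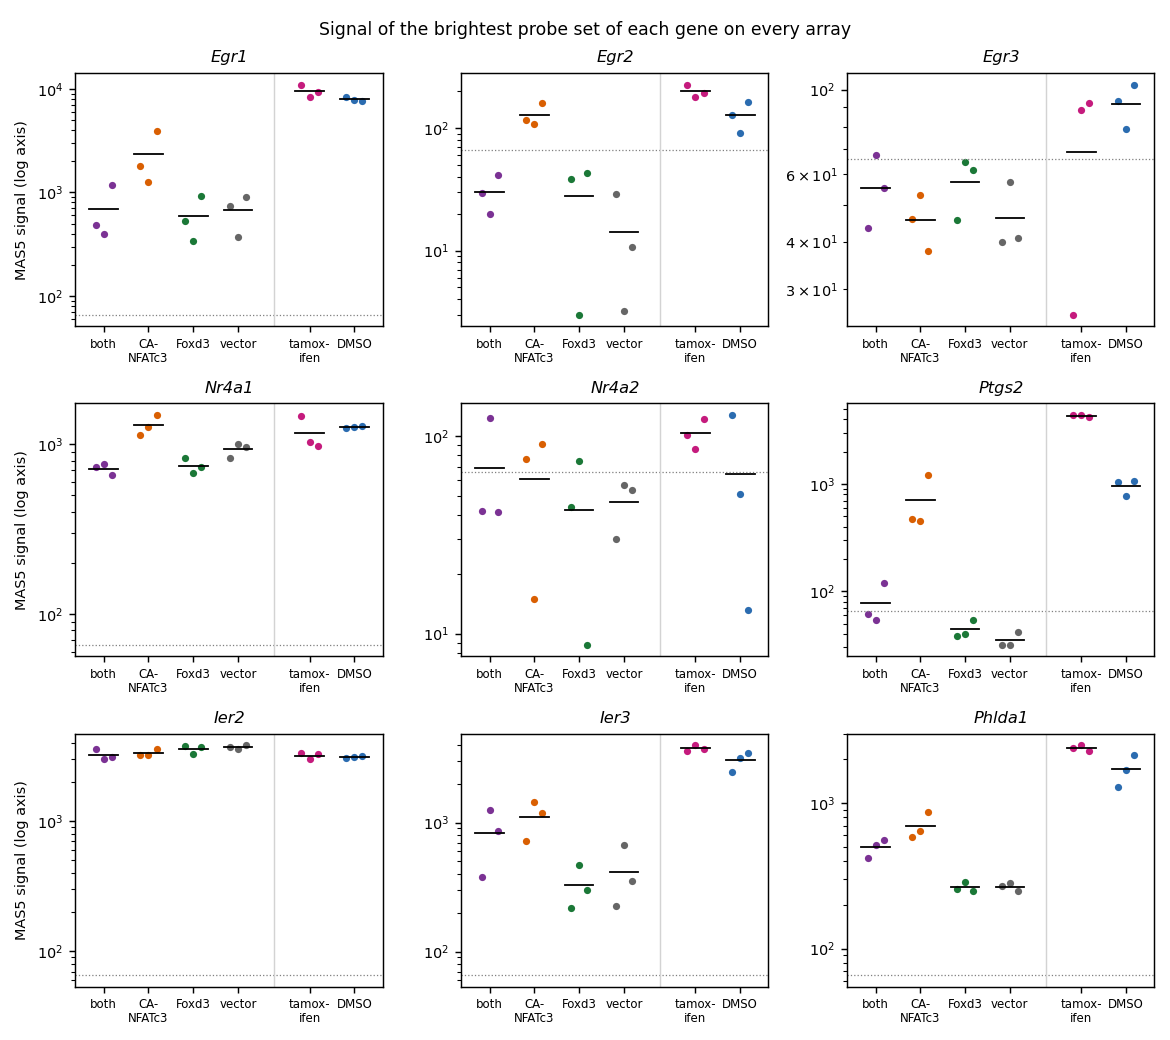
Signals of the 9 members by group. Each point is 1 array on a logarithmic axis, bars are means of 3 arrays, the dotted line is the filter level of 65.8, and the grey line parts transfected from knockout cells. Ptgs2 sits between 456.1 and 1215 in CA-NFATc3 arrays and at 31.7 to 41.8 in vector arrays, while Ier2 stays between 3012 and 3851 in all 6 groups.

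Several members were lower when the label named Foxd3 beside CA-NFATc3. Ptgs2, Nr4a1, Egr1 and Egr2 were lower in cells labelled with both plasmids than in CA-NFATc3 cells, 4 of the 8 members tested and none higher, where 3.69% of the 11609 genes were called lower and 2.44% higher. This comparison shares the CA-NFATc3 arrays with the one above. Phlda1 and Ier3 were not called, but both were with the replicate number as a block. Without CA-NFATc3 replicate 3 the count was 2, and leaving out any other single array gave 3 or 4. When any 1 CA-NFATc3 array was left out, Egr2 was again not tested. The sum of the fibroblast markers was 11443 to 13064 in arrays with both plasmids and 8767 to 9850 in CA-NFATc3 arrays. Most of it was Vim, with means of 11194 and 8118. Of 6 markers tested, 2 were called higher, Col1a2 by 2.07 ± 0.26 (limma adjusted p = 0.000113) and Vim by 0.46 ± 0.08 (0.00152). Col3a1 (-0.69), Fbln1 (-0.21) and Pdgfrb (-0.11) ran the other way and, like Thy1 (0.18), were not called. The part of fibroblasts in these differences was not tested.

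Ptgs2 read 60.9, 54.5 and 118.8 in arrays with both plasmids, against 473.6, 456.1 and 1215 in CA-NFATc3 arrays. Each of the 3 lay far below each CA-NFATc3 array, a difference of -2.66 ± 0.30 (limma adjusted p = 4.93e-05), or 6.33-fold lower on the scale of signal + 32. Egr1 read 479.8, 396.9 and 1187 in arrays with both plasmids, against 1807, 1258 and 3932 in CA-NFATc3 arrays. Its difference of -1.71 ± 0.45 (limma adjusted p = 0.0303) was not called without CA-NFATc3 replicate 1 (0.0577), CA-NFATc3 replicate 3 (0.178), or replicate 1 (0.106) or 2 (0.134) of the arrays with both. The limma adjusted p of Egr1 ran from 1.77e-06 to 0.178 over all 23 alternatives. Between arrays of the same replicate number the differences were -1.85, -1.59 and -1.70.

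Egr2 returned under the filter level, with 29.6, 19.9 and 41.1 in arrays with both plasmids against 117, 108.9 and 161.5 in CA-NFATc3 arrays, a difference of -1.37 ± 0.30 (limma adjusted p = 0.0111) that was not called when no offset was added (adjusted p = 0.260). The second Egr2 probe set differed by -1.78 ± 0.28 (limma adjusted p = 0.00109, each probe set tested). The Egr3 probe set that had been higher with CA-NFATc3 read 18.9, 11.1 and 21.6 in arrays with both, against 130.2, 118.6 and 142.9 in CA-NFATc3 arrays, a difference of -1.73 ± 0.24 (limma adjusted p = 0.000410, each probe set tested). Nr4a1 read 730.7, 763.8 and 656.7 in arrays with both, against 1134, 1254 and 1486 in CA-NFATc3 arrays, and its difference of -0.82 ± 0.11 (limma adjusted p = 0.000285) was called under every alternative run. Both Egr2 probe sets and this Egr3 probe set had entered the test only through the CA-NFATc3 arrays, and Ptgs2 through these and 1 array with both plasmids.

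Phlda1 read 416.6, 514.6 and 560.5 in arrays with both plasmids, just below the 586.7, 646.5 and 869.7 of CA-NFATc3 arrays. Its difference was -0.46 ± 0.14 (limma adjusted p = 0.0691), with an adjusted p of 0.0307 with the replicate block, 0.0296 with array weights and 0.0375 without CA-NFATc3 replicate 1. Ier3 overlapped between the groups, at 375.8, 1254 and 860.8 in arrays with both and 715, 1430 and 1196 in CA-NFATc3 arrays, a difference of -0.51 ± 0.40 (limma adjusted p = 0.596, and 0.0294 with the replicate block). Ier2 read 3572, 3030 and 3135 in arrays with both, overlapping the 3232, 3236 and 3613 of CA-NFATc3 arrays, and was not called. Nr4a2 was not called by its brightest probe set (0.15, limma adjusted p = 0.921), and its probe sets disagreed again. Probe set 1433422_at read 69.5, 115.2 and 59.7 with both against 51.5, 22.7 and 30.9 with CA-NFATc3. It gave 0.75 (limma adjusted p = 0.127, each probe set tested). The untested 1455034_at ran the opposite way, at 32.9, 21.6 and 39.8 against 64.8, 87.8 and 133.

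The interaction asks whether the difference that goes with the Foxd3 label was the same with and without CA-NFATc3. Ptgs2 was the 1 member called of 8, at -2.84 ± 0.43 (limma adjusted p = 0.00272, and 0.000104 to 0.0250 over the alternatives), where 0.810% of genes were called in this term and 0.724% were called below 0. Ptgs2 reached the filter level in the 3 CA-NFATc3 arrays and 1 array with both plasmids, so the filter favoured a value below 0 here too. It was called in all 23 alternatives, the run without a filter included. Egr2 (-1.71 ± 0.43, limma adjusted p = 0.0924) and Egr1 (-1.53 ± 0.63, adjusted p = 0.480) were not called; with the replicate block the adjusted p was 0.0210 for Egr2 and 0.000645 for Egr1, and without Foxd3 replicate 2 it was 0.0158 for Egr2. The values of Nr4a1 (-0.51, adjusted p = 0.229) and Phlda1 (-0.45, adjusted p = 0.544) were below 0 as well, without being called. When each probe set was tested, the second Egr2 probe set (-2.05 ± 0.39, limma adjusted p = 0.0280) and the second Egr3 probe set (-1.71 ± 0.33, adjusted p = 0.0326) passed the threshold. Both had entered the test only through the CA-NFATc3 arrays, as Egr2's brighter probe set had, so a value below 0 was favoured by the filter and supports nothing further. Leaving out single arrays took the adjusted p of the first as high as 0.0805 and of the second as high as 0.107.

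**Figure D2:**
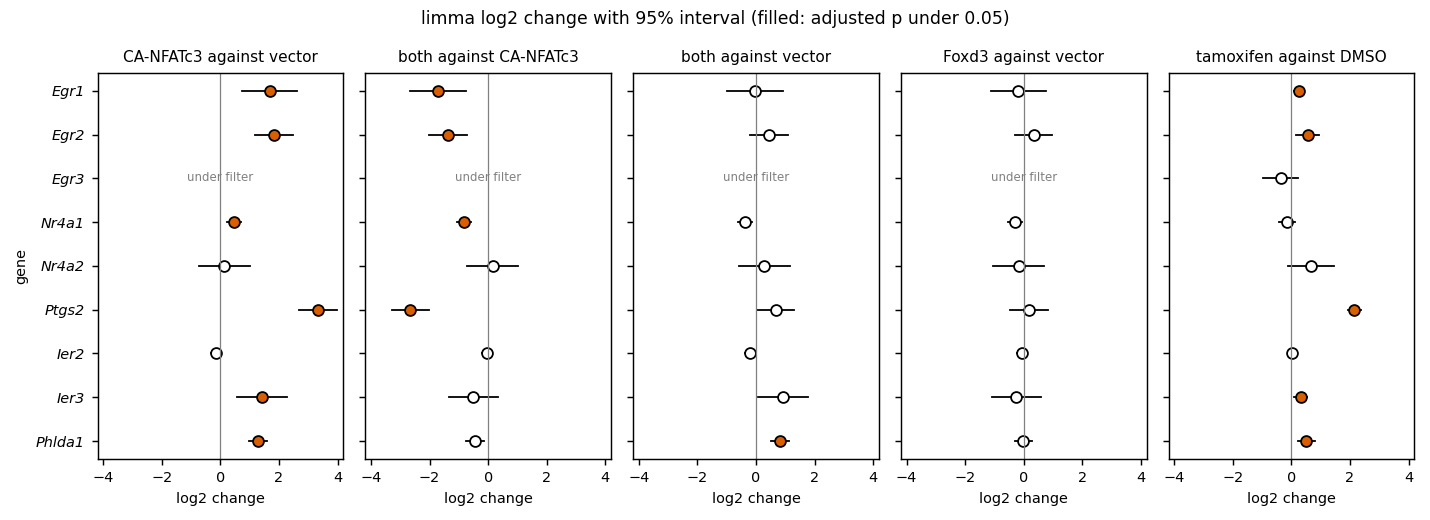
Differences of the members in each comparison. Points are limma log2(signal + 32) differences with 95% intervals, filled where the adjusted p is under 0.05, and Egr3 is under the filter in the transfected cells. Ptgs2 is at 3.33 with CA-NFATc3 against vector, -2.66 with both plasmids against CA-NFATc3 and 2.14 with tamoxifen against DMSO, and no member is filled with Foxd3 against vector.

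Against vector, cells labelled with both plasmids kept a higher signal of Phlda1 alone among the members called. Phlda1 read 416.6, 514.6 and 560.5 in arrays with both, against 267.9, 283.6 and 249.4 in vector arrays, a difference of 0.82 ± 0.14 (limma adjusted p = 0.00256) that was called under every alternative. That is 1 of 8 members, where 3.48% of genes were called higher. Fibroblast markers summed to 11443 to 13064 with both and 9007 to 10527 with vector, with 3 of 6 tested called higher, and their part in these differences was not tested. Vim made up most of these sums, with means of 11194 and 8804. Ptgs2 did not overlap between the groups (60.9 to 118.8 with both, 31.7 to 41.8 with vector), yet its difference of 0.67 ± 0.30 was not called (limma adjusted p = 0.261). Ier3 gave 0.91 ± 0.40 (limma adjusted p = 0.243), and 0.000732 as the adjusted p with the replicate block. Nr4a1 was lower in each array with both than in each vector array (656.7 to 763.8 against 827.4 to 1001), a difference of -0.36 ± 0.11 (limma adjusted p = 0.0880, and 0.0340 with array weights). Egr1 overlapped, with a difference of -0.035 and a 95% interval of -0.98 to 0.91.

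Against cells labelled Foxd3 alone, cells with both plasmids again differed in Phlda1 (0.83 ± 0.14, limma adjusted p = 0.0137). It read 416.6, 514.6 and 560.5 in arrays with both, against 258.7, 286.9 and 247.7 in Foxd3 arrays. Few genes were called in this contrast, 0.319% higher, and the Phlda1 call was lost without Foxd3 replicate 1 (0.0728) or 3 (0.0793), or replicate 2 (0.0674) or 3 (0.115) of the arrays with both. Ier3 gave 1.17 ± 0.40 (limma adjusted p = 0.521), with 0.000793 under the replicate block. Between cells labelled Foxd3 alone and vector cells, 0 of the 8 members were called by limma's test under any alternative run, where 2.88% of genes were called either way. Ptgs2 read 38.4, 39.7 and 54.3 in Foxd3 arrays, against 31.7, 31.9 and 41.8 in vector arrays, and Ier3 read 219.4, 465 and 298.8 in Foxd3 arrays, against 227.1, 674.3 and 350.1 in vector arrays. Both genes overlapped between the groups, as Phlda1 and Egr1 did. The 1 member at an unadjusted p under 0.05 was Nr4a1, with 823.2, 675.7 and 734.1 in Foxd3 arrays against 827.4, 1001 and 962.1 in vector arrays (-0.31 ± 0.11, limma adjusted p = 0.194).

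Part of the spread in Egr1, Ier3 and Ptgs2 followed the replicate number. Egr1 was highest in replicate 3 and lowest in replicate 2 in 4 of the 4 transfected groups. Ier3 was highest in replicate 2 and lowest in replicate 1 in 4 of 4, and Ptgs2 was highest in replicate 3 in 4 of 4. Among the 11609 genes tested, the same number was highest in all 4 groups for 13.9%, lowest in all 4 for 15.1% and both for 4.39%. Within numbers, Egr1 was higher with CA-NFATc3 than with vector by 1.27, 1.69 and 2.08, Ier3 by 1.53, 1.05 and 1.68, and Ptgs2 by 2.99, 2.93 and 4.08. Ier3 was higher with both plasmids than with vector by 0.65, 0.86 and 1.22 and than with Foxd3 by 0.70, 1.37 and 1.43, so its direction was shared by all 3 numbers in both of these contrasts, although the differences without pairing were not called.

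**Figure D3:**
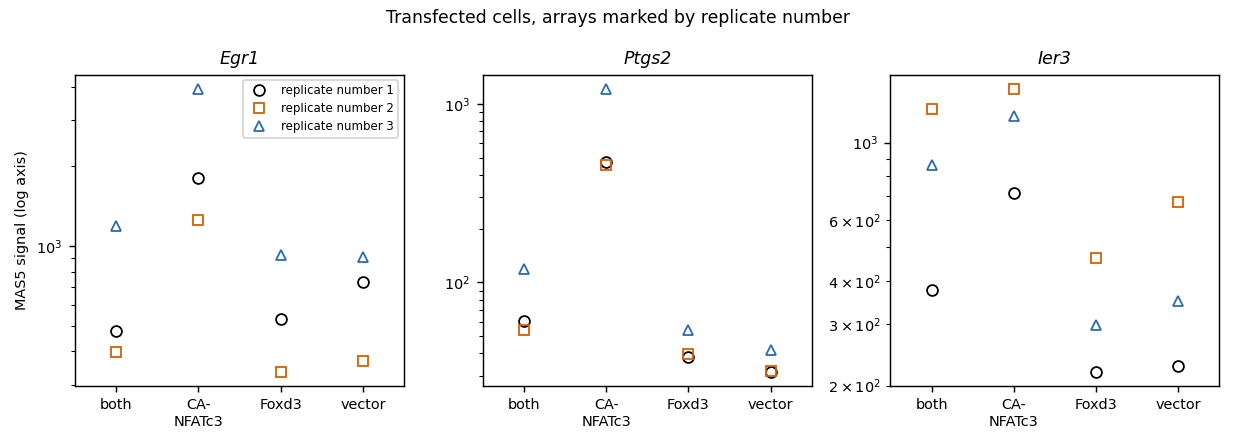
Signals by replicate number in the transfected cells. Each marker is 1 array on a logarithmic axis, with its shape giving the replicate number and the groups along the horizontal axis. Replicate 3 is the highest for Egr1 and Ptgs2 and replicate 2 for Ier3 in 4 of the 4 groups.

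In the conditional knockout cells, Ptgs2 was the member that differed by the most between tamoxifen and DMSO. It read 4390, 4363 and 4186 with tamoxifen, against 1044, 778.9 and 1057 with DMSO, tight in both groups and far apart. The difference was 2.14 ± 0.10 (limma adjusted p = 3.65e-08), 4.42-fold on the scale of signal + 32, and was called under every alternative. The second Ptgs2 probe set read 291.5, 274.1 and 261.6 with tamoxifen, against 113.6, 140.8 and 142 with DMSO (0.91 ± 0.13, limma adjusted p = 0.000356, each probe set tested). In all 5 of the 9 members were called higher and 0 lower, in a contrast where 17.5% of the 12093 genes tested were called higher, 16.9% lower and 34.4% either way. The count of members was 2 without tamoxifen replicate 2 or 3, 3 without tamoxifen replicate 1 or DMSO replicate 2, and 4 without either of the other DMSO arrays. Fibroblast markers moved with this contrast: 12 of 13 were called higher, with a median difference of 2.10 against -0.01 over all genes, and their sum was 39492 to 43913 with tamoxifen and 11098 to 14197 with DMSO. The stem cell markers summed to 66362 to 70397 with tamoxifen and 72822 to 75354 with DMSO, with 3 of 8 called lower. The largest part of these sums was Dppa5a, with means of 30132 with tamoxifen and 30853 with DMSO. Fgf4 fell by the most, with means of 967 with tamoxifen and 2779 with DMSO (-1.50 ± 0.11, limma adjusted p = 9.90e-07). Pou5f1 (-0.19) and Sox2 (-0.17) were the others called. RNA quality differed as well by one sign: the ratio of 3′ to 5′ actin control signals was 1.89 to 1.90 with tamoxifen and 2.06 to 2.24 with DMSO and did not overlap, while that of Gapdh was 0.999 to 1.03 with tamoxifen and 0.978 to 1.04 with DMSO. The part of these cells and of RNA quality in the differences of the members was not tested. Tamoxifen arrays were all at 2 days and DMSO arrays all at 0 days. Loss of Foxd3, the drug, Cre activity and time in culture therefore cannot be told apart in this contrast.

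Phlda1 read 2387, 2505 and 2295 with tamoxifen, against 1292, 1697 and 2142 with DMSO, a difference of 0.51 ± 0.14 (limma adjusted p = 0.0133, and 0.0505 without tamoxifen replicate 2). Ier3 and Egr1 moved less. Ier3 read 3603, 3980 and 3699 with tamoxifen, against 2464, 3190 and 3483 with DMSO (0.31 ± 0.10, limma adjusted p = 0.0344). Egr1 read 11009, 8295 and 9389 with tamoxifen, against 8319, 7890 and 7634 with DMSO, and these ranges overlapped (0.26 ± 0.08, limma adjusted p = 0.0323). Egr2 gave 0.56 ± 0.18 (limma adjusted p = 0.0326) by its brighter probe set, with 226.1, 178.5 and 192.8 with tamoxifen against 127.4, 91.3 and 164.1 with DMSO. The second Egr2 probe set, by contrast, read 136.6, 122.7 and 118.7 with tamoxifen and 177.9, 118.2 and 136.6 with DMSO (-0.15, adjusted p = 0.556).

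The calls of Egr1, Egr2 and Ier3 were lost when single arrays were left out, and also with all 18 arrays in 1 fit (adjusted p = 0.676 for Egr1, 0.136 for Egr2 and 0.551 for Ier3). Egr1 was not called without DMSO replicate 2 (0.0749) or 3 (0.0858) or tamoxifen replicate 1 (0.123) or 3 (0.0671). Egr2 was not called without DMSO replicate 1 (0.0525) or 2 (0.122) or any 1 of the tamoxifen replicates (0.119, 0.0530 and 0.0735 for replicates 1 to 3). Ier3 was not called without DMSO replicate 1 (0.0516) or any 1 of the tamoxifen replicates (0.0594, 0.119 and 0.0727).

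Nr4a1, Nr4a2, Egr3 and Ier2 were not called between tamoxifen and DMSO. Nr4a1 read 1458, 1036 and 979.8 with tamoxifen, around the 1244, 1268 and 1277 of DMSO, and gave -0.14 (limma adjusted p = 0.388); without tamoxifen replicate 1 it gave -0.32 (0.0139). The brightest Nr4a2 probe set read 101.8, 86.5 and 122.2 with tamoxifen, against 128, 50.96 and 13.2 with DMSO, and gave 0.68 ± 0.36 (limma adjusted p = 0.171), or 1.14 (0.00843) without DMSO replicate 1. Another (1455034_at) read 100.2, 110.1 and 98.1 with tamoxifen, against 58.9, 57.0 and 74.3 with DMSO (0.50, limma adjusted p = 0.0478, each probe set tested), and was not called when any 1 array except DMSO replicate 3 was left out (0.0861 to 0.145) or with the replicate block (0.0800). The brighter Egr3 probe set gave -0.37 (limma adjusted p = 0.323), while the second read 116.4, 88.5 and 68.7 with tamoxifen against 56.4, 36.1 and 59.2 with DMSO (0.57 ± 0.21, limma adjusted p = 0.0671, each probe set tested), reaching the filter level in the tamoxifen arrays alone. Ier2 read 3326, 3012 and 3268 with tamoxifen and 3089, 3146 and 3163 with DMSO (0.030, limma adjusted p = 0.722).

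**Figure D4:**
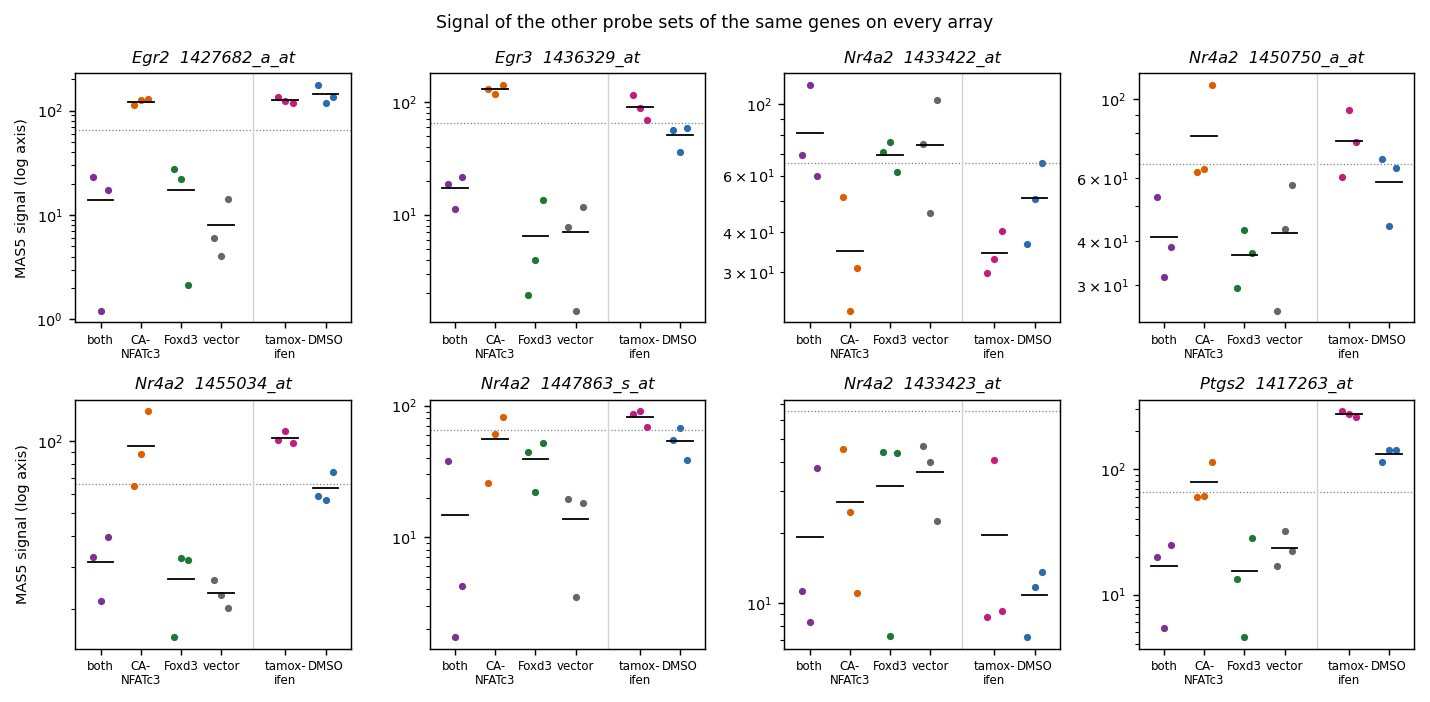
Signals of the second probe sets. Each point is 1 array on a logarithmic axis, bars are means of 3 arrays and the dotted line is the filter level of 65.8. The second Egr3 probe set sits at 118.6 to 142.9 in CA-NFATc3 arrays and at 1.40 to 11.6 in vector arrays, and the panels of Nr4a2 differ from each other in direction.

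Most members were brighter in the knockout cells than in the transfected cells. DMSO arrays lay wholly above vector arrays for the brightest probe set of 7 of the 9 members (Egr1, Egr2, Egr3, Nr4a1, Ptgs2, Ier3 and Phlda1) and wholly below for Ier2, while Nr4a2 overlapped; among 11621 genes, 37.0% lay wholly above and 26.0% wholly below. Egr1 averaged 7948 ± 346 in DMSO arrays and 669 ± 275 in vector arrays, and Ptgs2 averaged 960 ± 157 in DMSO arrays and 35.1 ± 5.77 in vector arrays (SD, n = 3 each). For Ptgs2 the mean levels ran, from the lowest, vector, Foxd3 (44.1 ± 8.79), both (78.1 ± 35.4), CA-NFATc3 (715 ± 433), DMSO and tamoxifen (4313 ± 111), and the arrays of vector and Foxd3 overlapped, as did those of CA-NFATc3 and DMSO. For Egr1 the order was Foxd3 (597 ± 299), vector, both (688 ± 434), CA-NFATc3 (2332 ± 1413), DMSO and tamoxifen (9564 ± 1366), and the first 3 did not differ beyond their spread. The arrays of the 2 kinds of cells were fitted separately and no test was made between them, since genotype, transfection and handling cannot be told apart. Fibroblast markers differed between them as well. Of 13 markers, 9 were under the filter level in every vector array and 1 in every DMSO array. Col1a2 averaged 27.2 in vector arrays and 1130 in DMSO arrays, while Vim averaged 8804 and 8454. The part of such cells in the levels of the members was not tested.

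Other genes of these pathways were counted from lists. Of 30 other immediate early genes, 26 were tested in the transfected cells; with CA-NFATc3 against vector 6 were called higher and 1 lower, with a median of 0.24 against -0.00499 over all genes. Over all genes tested, 4.62% were called higher and 1.24% lower in this contrast. Ccn1, a matricellular signalling protein, rose by 2.77 ± 0.20 (limma adjusted p = 3.09e-07) and Jun, a subunit of AP-1, by 1.12 ± 0.17 (0.000606). Ier5l fell by 0.75 (0.00191), and Dusp2, a phosphatase of ERK, gave 1.02 ± 0.24 (0.0156), not called without vector replicate 1 (0.0719) or 2 (0.0610) or CA-NFATc3 replicate 2 (0.0773) or 3 (0.0858). With both plasmids against CA-NFATc3 alone, 4 were called higher and 1 lower, where 2.44% of all genes were called higher and 3.69% lower. Gadd45g (1.48 ± 0.27, limma adjusted p = 0.00274), Ier5 (1.08 ± 0.13, 0.000113) and Ier5l (0.82 ± 0.13, 0.00103) were higher, while Ccn1 was lower (-0.94 ± 0.20, 0.00823, and 0.0529 without CA-NFATc3 replicate 3). By the mean of a gene's probe sets, Ier5 (0.0696) and Ccn1 (0.151) were not called. Ccn1 also was the 1 gene of the list called in the interaction (-1.94 ± 0.28, limma adjusted p = 0.00202, and 0.135 by the mean of its probe sets), where 0.810% of all genes were called. Against vector, both plasmids gave 6 higher and 1 lower and Foxd3 alone gave 4 higher and 0 lower, led by Gadd45g (1.26 ± 0.27, limma adjusted p = 0.0158, and 0.0930 without vector replicate 3, 0.0875 without Foxd3 replicate 3 or 0.0638 with no offset). Among all 11609 genes, both plasmids gave 404 genes (3.48%) called higher and 155 lower. Foxd3 alone gave 198 genes called higher and 136 lower, or 2.88% either way.

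Of 20 genes of calcineurin and NFAT, 17 were tested in the transfected cells. Rcan1, a calcineurin inhibitor and a known NFAT target, was the 1 called higher with CA-NFATc3 against vector (1.59 ± 0.11, limma adjusted p = 2.05e-07), where 4.62% of all genes were called higher and 1.24% lower. With both plasmids against CA-NFATc3 alone, 2 of the 17 were called lower and 0 higher, where 3.69% of all genes were called lower and 2.44% higher. These were Rcan1 (-1.32 ± 0.11, limma adjusted p = 2.35e-06) and Orai1 (-0.59 ± 0.14, 0.0143). Orai1 was not called without CA-NFATc3 replicate 2 (0.0618) or 3 (0.0775) or replicate 2 of both (0.0651). Rcan1 was also the 1 called in the interaction (-1.14 ± 0.16, limma adjusted p = 0.00130), where 0.810% of all genes were called. Itpr3, a calcium channel of internal stores, was lower with CA-NFATc3 (-0.50 ± 0.12, limma adjusted p = 0.0190), though not without vector replicate 2 (0.0643) or 3 (0.0823) or CA-NFATc3 replicate 3 (0.128). With tamoxifen, 1 of 18 was higher (Rcan1, 0.51 ± 0.07, limma adjusted p = 0.000268) and 3 were lower, led by Nfatc4 (-0.58 ± 0.09, 0.000525, and 0.420 by the mean of its probe sets). Among all genes tested with tamoxifen, 17.5% were called higher and 16.9% lower.

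Factors that act on immediate early promoters and feedback genes of ERK were counted in the same way. Of 13 serum response, ternary complex, CREB and MEF2 factors tested, 2 were called higher with CA-NFATc3 against vector, Elk3 (1.45 ± 0.14, limma adjusted p = 7.94e-06) and Mef2a (1.02 ± 0.13, 0.000147), and none lower. The shares of all genes in this contrast were 4.62% higher and 1.24% lower. Mef2a was lower with both plasmids than with CA-NFATc3 alone (-0.66 ± 0.13, limma adjusted p = 0.00621), while Elk3 was still higher than vector (1.11 ± 0.14, 0.000184). Of 9 ERK feedback genes, Dusp6, an ERK phosphatase, was the 1 called with CA-NFATc3 (0.63 ± 0.09, limma adjusted p = 0.000231). Dusp6 was also called in the interaction (-0.55 ± 0.12, limma adjusted p = 0.0485), a call lost in 14 of the 23 alternatives. With tamoxifen, 3 of the 9 were higher and 3 lower, among them Dusp4 (1.80 ± 0.10, limma adjusted p = 1.82e-07) and Spry1 (-0.59 ± 0.11, 0.00162), where 17.5% of all genes were called higher and 16.9% lower. Of the corepressors and other members of the Egr and Nr4a families, 3 were tested. Nab1, a corepressor of EGR proteins, was called with CA-NFATc3 (0.51 ± 0.11, limma adjusted p = 0.00894, and 0.0562 without vector replicate 3, 0.0760 without CA-NFATc3 replicate 3 or 0.0996 by the mean of its probe sets). It was lower with both plasmids than with CA-NFATc3 alone (-0.48 ± 0.11, limma adjusted p = 0.0122). That call was lost without CA-NFATc3 replicate 3 (0.0845) or replicate 3 of both (0.0596).

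The rest of the prostaglandin pathway was tested as a list of 16 genes. With CA-NFATc3 against vector, 0 of the 8 genes tested were called in limma's test and 2 were at an unadjusted p under 0.05, where 4.62% of all genes were called higher and 1.24% lower. With tamoxifen against DMSO, 5 of 11 were called higher and 0 lower, with a median of 0.32 against -0.01 over all genes. Of all genes tested there, 17.5% were called higher and 16.9% lower. Pla2g4a, the phospholipase that frees arachidonic acid, gave 1.47 ± 0.10 (limma adjusted p = 5.54e-07), Ptges, a prostaglandin E synthase, 1.05 ± 0.14 (0.000151), and Slco2a1, a prostaglandin transporter, 0.92 ± 0.18 (0.00208). The same arrays carry the higher fibroblast marker sums given above. In the same contrast 12 of 29 other immediate early genes were called higher and 3 lower, led by Fosl2, an AP-1 subunit (2.03 ± 0.14, limma adjusted p = 8.11e-07).

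The genes whose log2 values followed each member most closely over the 12 transfected arrays are given as a description; the arrays share their groups and replicate numbers. Ptgs2 was followed by Procr (Pearson r = 0.984), Gpat3 (0.982) and F2r (0.981). Phlda1 was followed by Ap1s2 (0.980), AU015836 (0.967) and Arntl2 (0.965), and Ier3 by Ero1a (0.971), Fbxl4 (0.963) and 1110051M20Rik (0.942). Egr1 was followed by Krt23 (0.961), S100a10 (0.945) and Ano6 (0.936), Egr2 by Fgfr2 (0.959), Cdc42ep5 (0.958) and Lrp2 (0.954), and Nr4a1 by Htra1 (0.945), Eid2 (0.945) and Slc41a1 (0.944). The 3 lists of genes nearest to Ptgs2, Egr1 and Ier3 share no gene. Ier2 (Ubxn8, 0.872) and Nr4a2 (Mir142, 0.890), which were called in no contrast of the transfected cells, had the lowest best values.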

How the data were processed

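Affymetrix arrays measured total RNA in 18 samples, 6 groups of 3 replicates that the labels call biological. What the authors deposited is 1 intensity per probe set (45101 on each array), the authors' linear MAS5 signal (per the submitters' processing notes, with no version); detection calls and background values were not analysed here, so the precision rests on the number of arrays. The platform annotation names 1 gene for 34945 probe sets (18193 genes) and several for 932, and 64 are controls. No pair of arrays shared more than 0.00443% of its values.

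Signals were used as deposited, raised by 32 and log2-transformed, and of several probe sets the brightest by mean log2 over the 18 arrays stood for its gene. A gene entered a fit when 3 or more of its arrays reached a signal of 65.8. The tests were two-sided moderated tests of limma 3.58.1 (R 4.3.3; lmFit and eBayes, trend on), run on the 12 transfected and the 6 knockout arrays apart, with Benjamini-Hochberg adjustment over all genes tested (threshold 0.05). The fit was tested on simulated data. The replicate numbers were checked as pairs: among transfected cells, deviations from the group mean had correlations of 0.104 to 0.315 in the 18 same-number pairs and -0.282 to 0.0133 in the 36 others, so the numbers were taken to pair the samples, and the fit with the replicate number as a block is given where it changes a call. The main fit did not use this pairing. In the knockout cells the 3 same-number pairs correlated at -0.0425 to 0.0152.

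The members and the gene lists were chosen with earlier results of these data known. Named genes are all 9 members with every probe set, up to 4 called genes of each list with the largest change, the 3 genes most correlated with each member, and the Foxd3 and Nfatc3 checks. Alternatives were other offsets, filters, quantile normalization, all 18 arrays in 1 fit, array weights, the block, the mean of a gene's probe sets, each probe set on its own, and leaving out each array. The block and the left-out arrays in the test of each probe set were added after seeing the data. Plots used Python 3.11.15 with matplotlib 3.10.9.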

Additional observations from a re-analysis of the deposited data

Results flagged for a closer look

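Ptgs2 was flagged because the difference that goes with the Foxd3 label was not the same with and without CA-NFATc3: the interaction was -2.84 ± 0.43 (limma adjusted p = 0.00272), with each array of both plasmids below each CA-NFATc3 array, while Foxd3 and vector arrays overlapped. This gene entered the test through the 3 CA-NFATc3 arrays and 1 array with both plasmids, so the filter favoured a value below 0. The second Egr2 probe set (-2.05 ± 0.39, limma adjusted p = 0.0280) and the second Egr3 probe set (-1.71 ± 0.33, adjusted p = 0.0326) were flagged on the same ground in the test of each probe set; both lay under the filter level in the other 9 transfected arrays, so they entered the test only through the CA-NFATc3 arrays in which they were high, which favours a value below 0. Groups of 3 arrays were not searched for single arrays far from the others.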

How the results depend on the processing

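Of the 18 changes of members called, 8 were called with the same sign under every alternative in which they were tested: Ptgs2 in its 4 comparisons, Phlda1 and Egr2 with CA-NFATc3 against vector, Phlda1 with both against vector and Nr4a1 with both against CA-NFATc3. Egr2 was tested in 19 of the 23 alternatives. It fell under the filter on the mean signal, and also when any 1 CA-NFATc3 array was left out. Egr2 had entered the test only through the CA-NFATc3 arrays in which it was high. Its call was therefore not tested against leaving out any of them, and its place among the 8 is a description. The number of members called with tamoxifen was 5, and 2 without a filter, 2 with all 18 arrays in 1 fit and 3 by the mean of the probe sets. In the interaction it was 1, and 2 with all 18 arrays, 2 with array weights, 3 with the replicate block, 2 by the mean of the probe sets and 3 with each probe set tested. With both against vector it was 1, and 2 with array weights or the replicate block, and with both against Foxd3 it was 1, and 2 with the block. Leaving out single arrays gave 2 to 6 with CA-NFATc3 against vector, 2 to 4 with both against CA-NFATc3, 0 to 1 with both against Foxd3, 1 to 2 in the interaction and 2 to 4 with tamoxifen. The replicate block changed no member's call other than those given in the report. Over all genes, the calls of CA-NFATc3 against vector numbered 680, and 1104 with the block and 349 without CA-NFATc3 replicate 3. Both against CA-NFATc3 gave 711, and 1258 with the block and 385 without CA-NFATc3 replicate 3. Both against vector gave 559, and 1122 with the block, 343 by the mean of the probe sets and 322 to 347 without vector replicate 3 or replicate 2 or 3 of both. Foxd3 against vector gave 334, and 783 with the block, 552 with array weights, 187 without vector replicate 3 and 158 without Foxd3 replicate 3. Both against Foxd3 gave 38, and 96 with the block, 63 with all 18 arrays and 22 to 25 without Foxd3 replicate 1 or 2 or replicate 2 or 3 of both. The interaction gave 94, and 245 with the block, 172 with array weights, 161 with all 18 arrays, 60 without Foxd3 replicate 3 and 48 without CA-NFATc3 replicate 3.

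Signs turned in 42 values, of which 0 were called by limma under the alternative and 1 had been called before, Nab1 with tamoxifen (-0.024 by the mean of its probe sets); the cause was not tested. With array weights, Egr1 with both against vector was 0.034, Nr4a2 with both against CA-NFATc3 -0.021 and Ier2 in the interaction -0.043. By the mean of the probe sets, Ptgs2 with Foxd3 against vector was -0.037 and Egr3 with tamoxifen 0.10. When single arrays were left out, Nr4a2 ran from -0.12 to 0.57 with CA-NFATc3 against vector, -0.076 to 0.47 with both against vector, -0.29 to 0.41 with both against CA-NFATc3, -0.48 to 0.21 with Foxd3 against vector and -0.11 to 0.63 in the interaction. Egr1 ran from -0.49 to 0.26 with both against vector, -0.54 to 0.15 with Foxd3 against vector and -0.31 to 0.50 with both against Foxd3. Ier3 ran from -0.64 to 0.21 in the interaction and -0.59 to 0.14 with Foxd3 against vector, and Ier2 from -0.065 to 0.058 and from -0.095 to 0.0081 in the same 2 and, with both against CA-NFATc3, from -0.12 to 0.0016. Phlda1 with Foxd3 against vector ran from -0.067 to 0.028, Egr2 with both against Foxd3 from -0.24 to 0.31 and Nr4a1 with both against Foxd3 from -0.11 to 0.022. Signals under 65.8, as for Egr2, Egr3 and Nr4a2 in most transfected arrays, limit what these arrays show.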
